A study of Mus musculus with 15 samples.

Results

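The 38 genes described here belong to the interferon response and to the route by which peptides reach class I molecules, and they were compared across the 5 sorted populations of mouse mammary epithelial cells in this series. They were named as a list, and each gene was read from the probe set that maps to its symbol alone, taking the one with the highest mean log2 intensity over the 15 arrays where there were several. Of the 38 genes, 36 had such a probe set among the 18193 genes with one on the array, and 35 were bright enough to be tested among 12107 genes. Isg15 shares its probe set with another symbol and Ifi44 was matched to none of its own, so neither was analysed here, and Mx2 stayed below the filter, with 387 in ALP replicate 3 and 7.95 to 74.1 on the other 14 arrays. All cells came from C57BL/6 females and each population was measured on 3 arrays. The alveolar luminal cells (AL) were YFP+ cells sorted at midgestation from Wap-Cre;R26Y mice, in which Cre is driven by the promoter of the milk gene Wap and switches on a YFP reporter at the Rosa26 locus. The alveolar luminal progenitors (ALP) were cells marked by the same Wap-Cre;R26Y pair in adult virgins. The basal fraction in which mammary stem cells are enriched (MaSC, Lin-CD24+CD29hi), the luminal progenitors (LP, Lin-CD24+CD29lo CD61+) and the mature luminal cells (ML, Lin-CD24+CD29lo CD61-) came from wildtype adult virgins. Lin stands for the markers CD31, CD45 and TER119 of endothelial and blood cells, which were used to gate those cells out. AL thus differ from the other populations in pregnancy as well as cell type, and AL and ALP from the other 3 in carrying the transgenes, which cannot be told apart from the population here.

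Interferons are secreted proteins that act through receptors and Jak kinases on Stat and Irf transcription factors, which enter the nucleus and bind short response elements before their target genes. The targets include sensors of viral nucleic acid, proteins that block replication, GTPases that act on vacuoles holding intracellular pathogens, and chemokines. They also include the parts of the antigen route: proteasome subunits that replace the constitutive ones to form the immunoproteasome, the Tap transporter that moves peptides into the endoplasmic reticulum, and the class I light chain B2m. Epithelia keep a part of this set on without infection, and no interferon treatment is given for these cells.

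Intensities were normalised by the authors on a linear scale, and the median probe set of an array had between 137 and 209.9, so values below that range are dim. The labels were checked against marker genes: the summed intensity of 8 basal genes was between 80405 and 85704 in MaSC, against 3584 to 5146 in LP and between 1546 and 4283 in ML, that of 7 milk genes was between 82493 and 93433 in AL, and that of 4 hormone-sensing luminal genes was between 30982 and 33855 in ML. The sorts labelled luminal were not all free of basal signal: the basal genes summed to values between 22885 and 27279.8 in AL and between 8936 and 39158 in ALP, and 6 of the 8 were called higher in AL than in LP. These sorts also differed in fibroblast signal. The fibroblast markers summed to values between 37878 and 56417 in LP and between 1732 and 6304 in ML, and all 10 were called higher in LP. ALP replicate 3 stood apart from the other 14 arrays. Its 17 leukocyte markers summed to 70918, against 1258 to 4888 on the other arrays, and 14 of the 17 were above the array's median there, against 1 to 9 elsewhere. Ptprc, the gene of the CD45 antigen used in the gate, had 2795 there and 11.2 to 93.6 elsewhere. Its class II genes summed to 45294 and its endothelial genes to 19802, against at most 7589 and 4492 on the other arrays. All 35 members had their highest ALP value on this array, 24 of 35 had their highest value of all 15 arrays there, and 22 were over 2-fold above the higher of the other 2 ALP arrays. The median ratio to those arrays was 2.81. The part of these other cells in the members' values was not tested, and calls of members that use ALP are therefore given also without this array. In bulk samples, fewer cells of a type and less RNA per cell cannot be told apart. MaSC replicates also differed among themselves: 21 of 35 members were highest in MaSC replicate 1 and 25 of 35 lowest in MaSC replicate 3, and the 4 hormone-sensing luminal markers summed to 19487, 13961 and 5781 in MaSC replicates 1, 2 and 3. The part of luminal cells in this spread was not tested.

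**Figure D1:**
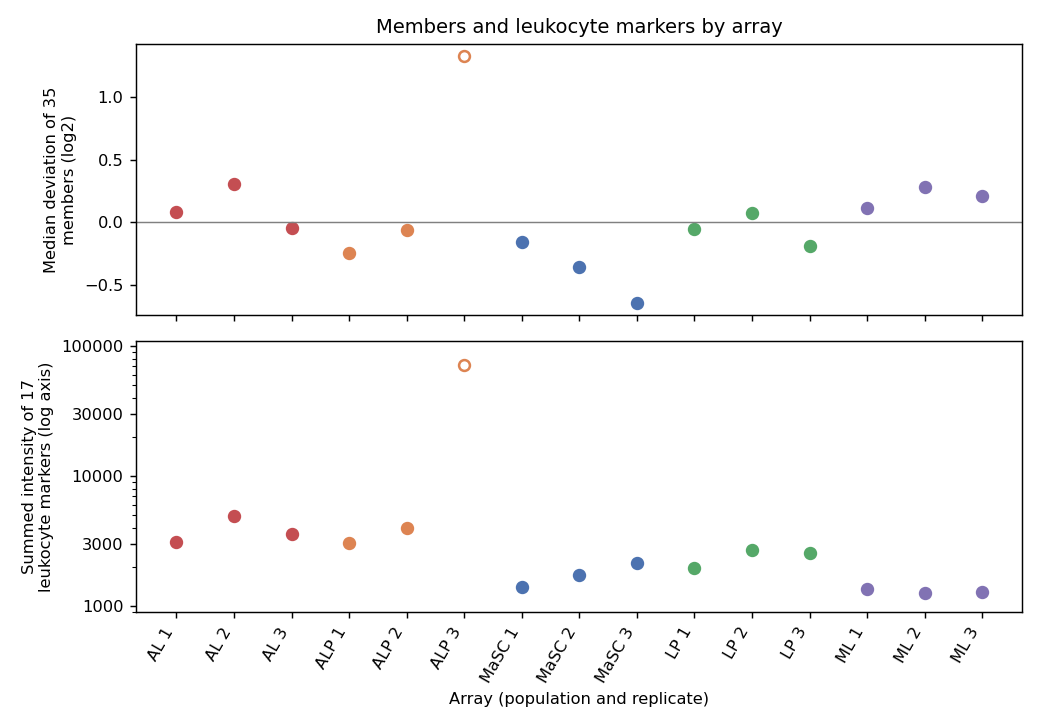
Top, the median over the 35 members of each array's log2 intensity minus the gene's mean over the 15 arrays. Bottom, the summed intensity of 17 leukocyte markers on a log axis. Each point is 1 array, grouped by population, and the open circle is ALP replicate 3, which lies at 1.32 in the top panel, where the other 14 arrays lie between -0.64 and 0.31.

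The interferon-stimulated response element, the site bound by the complex of Stat factors and Irf9, lies before many interferon targets. Its core was searched as GAAA, any 2 bases, GAAA, on both strands, in windows running from 250 bases before to 50 bases after the transcription start (RefSeq, GRCm38.p6). A window was matched for 29 of the 38 members, Isg15 among them. The core was found in 13 of those 29 genes (44.8%), and in 3.99% of all 27025 genes with a window. The Stat site TTC, any 3 bases, GAA, bound by Stat dimers in responses to interferon gamma, was found in 6 of the 29 (20.7%), against 9.55% of all genes, and the 2 motifs overlapped in 24 windows of all genes. Of the 9 members with a window whose mean was highest in ML, 2 held the core, as did 5 of the 7 whose mean was lowest in ML, so members of either pattern held it. The stretches around the core are given for genes with the largest differences below, with the core in capitals and the strand that of the gene. Stat2 and Oas3 had their highest means in ML.
Stat2, chr10:128270256-128270305, plus strand: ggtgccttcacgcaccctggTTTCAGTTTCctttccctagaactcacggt
Oas3, chr5:120777705-120777754, minus strand: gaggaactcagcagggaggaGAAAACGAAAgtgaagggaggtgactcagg
Ifit3, Gbp3, Igtp and Cxcl10 had their lowest means in ML, and the capitals of Ifit3 and Gbp3 cover more than 1 core.
Ifit3, chr19:34583353-34583436, plus strand: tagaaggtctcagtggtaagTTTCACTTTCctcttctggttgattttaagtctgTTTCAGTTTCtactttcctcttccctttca
Gbp3, chr3:142559979-142560034, plus strand: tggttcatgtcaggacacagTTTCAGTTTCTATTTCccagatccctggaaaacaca
Igtp, chr11:58199502-58199551, plus strand: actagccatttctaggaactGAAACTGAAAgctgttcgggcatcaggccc
Cxcl10, chr5:92349073-92349122, minus strand: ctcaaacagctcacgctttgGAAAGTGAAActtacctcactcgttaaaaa
Rsad2 and Bst2 had their lowest means in MaSC, and the capitals of Bst2 also cover more than 1 core.
Rsad2, chr12:26456543-26456592, minus strand: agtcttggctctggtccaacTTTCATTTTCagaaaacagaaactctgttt
Bst2, chr8:71537567-71537622, minus strand: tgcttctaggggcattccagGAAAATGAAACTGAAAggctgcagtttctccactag
The windows of Psmb9 and Tap1, which lie head to head on chromosome 17 and on opposite strands, share the 275 bases of chr17:34187306-34187580, and neither motif was found in either window.

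The members did not rise or fall as a block. Over the 15 arrays, ML had the highest mean log2 intensity for 13 of 35 members, AL for 9, LP for 6, ALP for 4 and MaSC for 3, and the lowest mean fell in MaSC for 17 members, in AL for 8, in ML for 7 and in LP for 3. Irf7, Oasl2, Rsad2 and Gbp2 had their highest mean in ALP, and without ALP replicate 3 that population had the highest mean for 0 members. The 10 pairs of populations were compared in a single limma fit over all 15 arrays, with Benjamini-Hochberg adjustment over 12107 genes, and a member was called at an adjusted p under 0.05. All 10 comparisons share each gene's estimate of the spread. Leaving out ALP replicate 3 therefore moved the p-values of comparisons without ALP, but not their log2 differences. Differences are given with their standard error (±, n = 3 arrays per population). The sources do not say whether the 3 arrays of a population came from separate animals, so the p-values speak only of the spread between these arrays, which may be technical.

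**Figure D2:**
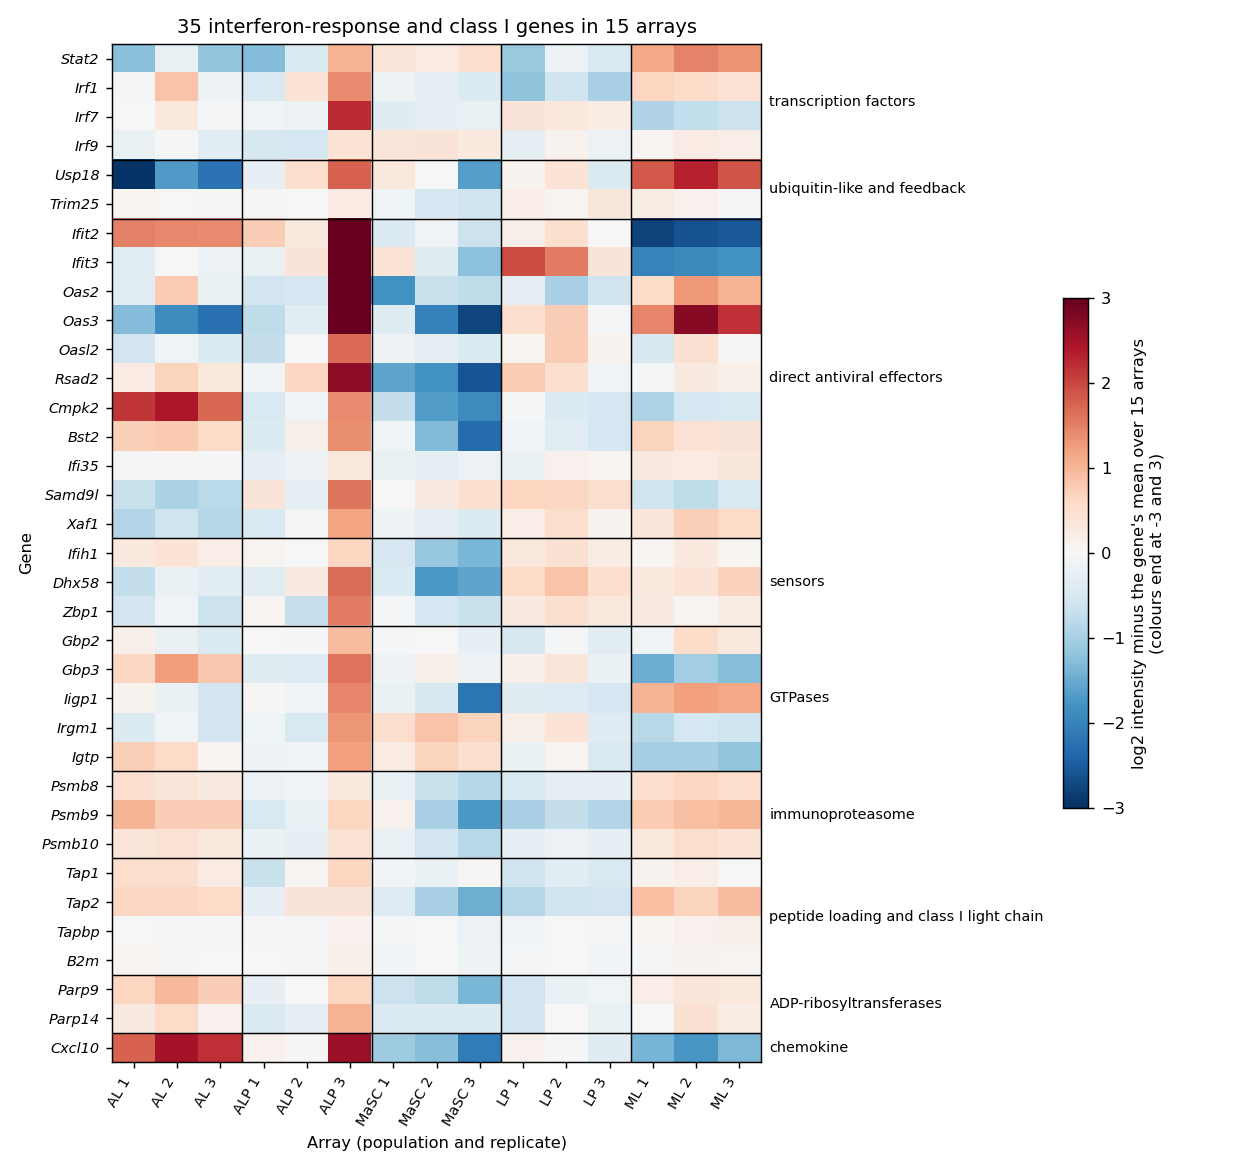
Log2 intensity minus the gene's mean over the 15 arrays for the 35 members tested, with 1 column per array in the order AL, ALP, MaSC, LP and ML and genes ordered by role. ALP replicate 3 is high for all 35 members, and neighbouring genes differ in which other population is high.

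The largest number of calls was that between MaSC and ML: 5 of the 35 members were higher and 17 lower in MaSC than in ML, beside 27.1% and 32.5% of all genes tested, with a median log2 difference of -0.63, beside -0.07 over all genes tested. Without ALP replicate 3, 7 were higher and 22 lower, beside 28.7% and 34.1%. AL against MaSC ran the other way: 12 of the 35 members were higher and 5 lower in AL than in MaSC, beside 31.3% and 28% of all genes tested, with a median of 0.49, beside 0.05 over all genes tested, and without ALP replicate 3, 18 were higher and 6 lower, beside 33.1% and 29.4%. Fewer calls fell between MaSC and LP: 0 of the 35 members were higher and 4 lower in MaSC than in LP, beside 15.7% and 23.1% of all genes tested, with a median of -0.47, beside -0.07 over all genes tested. This count depended on ALP replicate 3, for without it 4 were higher and 13 lower, beside 17.9% and 24.9%. With quantile normalisation 1 member was higher and 6 lower in MaSC than in LP, while over all genes the share of calls that were higher in MaSC was 41.6%, in place of 40.5%. The share of all genes called under that scaling is not given here, so this count is no result about the members. Between LP and ML, 5 of the 35 members were higher and 9 lower in LP than in ML, beside 27.3% and 21.7% of all genes tested, with a median of -0.27, beside 0.04 over all genes tested, and without ALP replicate 3, 8 were higher and 16 lower, beside 29% and 23.7%.

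In AL against LP, 9 of the 35 members were higher and 3 lower in AL than in LP, beside 21.3% and 24.2% of all genes tested, with a median of 0.09, beside -0.03 over all genes tested. Without ALP replicate 3, 13 were higher and 7 lower, beside 23.8% and 26.4%. In AL against ML, 5 of the 35 members were higher and 5 lower in AL than in ML, beside 28.7% and 24.8% of all genes tested, with a median of -0.07, beside 0.03 over all genes tested, and without ALP replicate 3, 8 were higher and 9 lower, beside 30.8% and 26.2%. With arrays centred on their medians, 5 were higher and 10 lower in AL, while over all genes that centring moved the share of calls that were higher in AL to 40.6%, in place of 53.7%. The comparison of AL with ALP turned on ALP replicate 3. With it, 2 of the 35 members were higher and 4 lower in AL than in ALP, beside 18.7% and 21.2% of all genes tested, with a median of -0.04, beside -0.02 over all genes tested. Without it, 11 were higher and 3 lower, beside 21.8% and 18.8%, and the median was 0.23, beside 0.03. With all arrays, quantile normalisation gave 5 higher and 4 lower in AL than in ALP, and centring on the medians 8 higher and 4 lower, while over all genes the share of calls that were higher in AL was 57.5% and 65.8% under these scalings, in place of 47%. In ALP against MaSC, 13 of the 35 members were higher and 1 lower in ALP than in MaSC, beside 21.8% and 16.6% of all genes tested, with a median of 0.73, beside 0.07 over all genes tested, and without the array, 9 were higher and 4 lower, beside 17% and 18.9%, with a median of 0.32, beside 0.03. In ALP against ML, 7 of the 35 members were higher and 3 lower in ALP than in ML, beside 21.1% and 15.6% of all genes tested, with a median of -0.08, beside -0.02 over all genes tested, and without it, 7 were higher and 12 lower, beside 20.3% and 20.9%, with a median of -0.41, beside -0.05. With all arrays, quantile normalisation gave 7 higher and 8 lower in ALP than in ML, and centring 7 higher and 13 lower, while the share of higher calls over all genes was 38.6% and 22.6%, in place of 57.5%. In the fit over 15 arrays, ALP against LP had the fewest calls of the 10 comparisons, for the members and over all genes. By limma, 0 of the 35 members were higher and 0 lower in ALP than in LP, beside 3.58% and 3.97% of all genes tested, with a median of 0.35, beside -0.02 over all genes tested. At an unadjusted p under 0.05 there were 4 members, and the other settings tried gave 0 to 3 calls. Without ALP replicate 3, 0 were higher and 0 lower, beside 1.76% and 2.24%, and the median was 0.00, beside -0.06. Comparisons that share a population share its arrays, so these counts are not independent of each other.

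**Figure D3:**
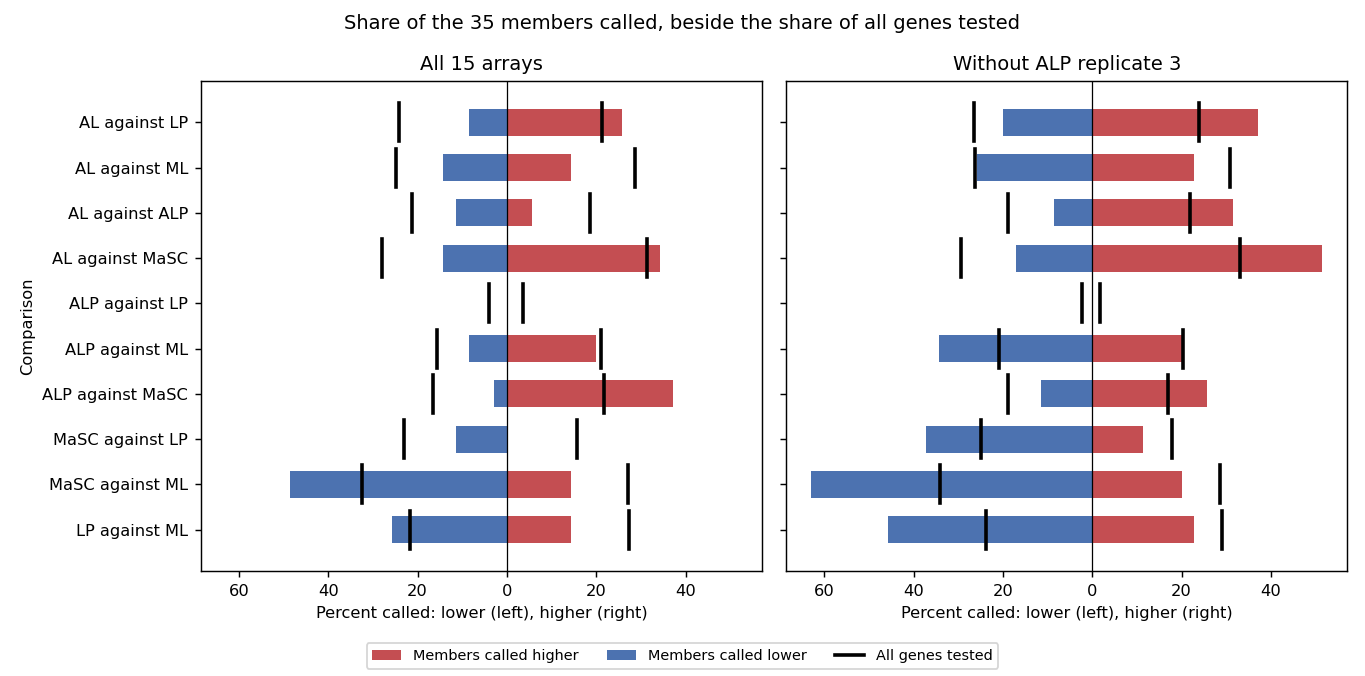
Percent of the 35 members called higher and lower in each of the 10 comparisons, as bars, with the percent of all 12107 genes as black ticks, for the fit with 15 arrays and the fit without ALP replicate 3. The bar for members lower in MaSC than in ML (48.6%) lies above its tick (32.5%), and the bars of ALP against LP are at 0.

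Over the 10 comparisons there were 109 calls of the 350 possible with all arrays and 177 without ALP replicate 3. Of the 109, 104 passed in both fits with the same direction, and the 5 that did not were Oas3 in AL against ALP and Bst2, Iigp1, Psmb8 and Psmb10 in ALP against MaSC. Oasl2, a protein of the Oas family, Zbp1, a sensor of left-handed nucleic acid, the guanylate-binding protein Gbp2, B2m and the ADP-ribosyltransferase Parp14 were called in no comparison, and only Oasl2 and B2m of these were called in none without ALP replicate 3.

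The immunoproteasome set AL and ML apart from MaSC and LP. Psmb8, Psmb9 and Psmb10, its 3 catalytic subunits, were high in ML and AL and low in MaSC and LP. Psmb9 had AL values of 2942, 2456 and 2426, ALP values of 1063, 1259 and 2292, MaSC values of 1589.6, 741 and 446, LP values of 748, 895 and 797 and ML values of 2479.9, 2748 and 2928. The AL and ML arrays overlapped with each other, and all 6 were above every MaSC, LP and ALP array. AL exceeded LP by 3.2-fold (log2 difference 1.68 ± 0.38, adjusted p = 0.00393) and MaSC by 3.22-fold (log2 difference 1.69 ± 0.38, adjusted p = 0.00254). The differences of LP and MaSC from ML were about as large (LP against ML, log2 difference -1.74 ± 0.38, adjusted p = 0.00296, and MaSC against ML, log2 difference -1.75 ± 0.38, adjusted p = 0.00213).

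Psmb8 had AL values of 4295, 3852 and 3626, ALP values of 2659, 2804 and 3713, MaSC values of 2589, 1912 and 1663, LP values of 2206, 2455 and 2511 and ML values of 4178, 4614 and 4310.1. Every AL and ML array was above every MaSC and LP array, and ALP replicate 3 reached the range of AL. AL exceeded LP by 1.64-fold (adjusted p = 0.00393) and MaSC by 1.94-fold (adjusted p = 0.000377), and LP were below ML by 1.83-fold (adjusted p = 0.0011). Psmb10, on another chromosome, had AL values of 4412, 4674 and 4307, ALP values of 2997, 2909 and 4641, MaSC values of 2960.5, 2301 and 1938, LP values of 2806, 3032 and 2897 and ML values of 4311, 4993 and 4603, and its steps were smaller. AL exceeded LP by 1.53-fold (adjusted p = 0.0149), and MaSC were below ML by 1.96-fold (adjusted p = 0.000768). AL and ML did not pass the test for any of these subunits, with log2 differences of -0.06 for Psmb9, -0.16 for Psmb8 and -0.05 for Psmb10, a result that does not show them to be equal. The constitutive subunits that they replace, Psmb5, Psmb6 and Psmb7, kept to a narrow range: Psmb6 was between 9522 and 9944 in AL, between 9431 and 9928 in MaSC, between 9085 and 9990.3 in LP and between 9468 and 9942 in ML. Of the 3, only Psmb5 was called anywhere, by 1.12-fold (adjusted p = 0.043) in AL over MaSC and by 1.14-fold (adjusted p = 0.0223) in MaSC below ML.

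In ALP, the subunits depended on replicate 3. Psmb9 in ALP replicates 1 and 2 lay between the LP arrays and the AL arrays. AL against ALP was not called with all arrays (log2 difference 0.84 ± 0.38, adjusted p = 0.0999), and was called for all 3 subunits without replicate 3 (Psmb9, log2 difference 1.17, adjusted p = 0.0309).

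**Figure D4:**
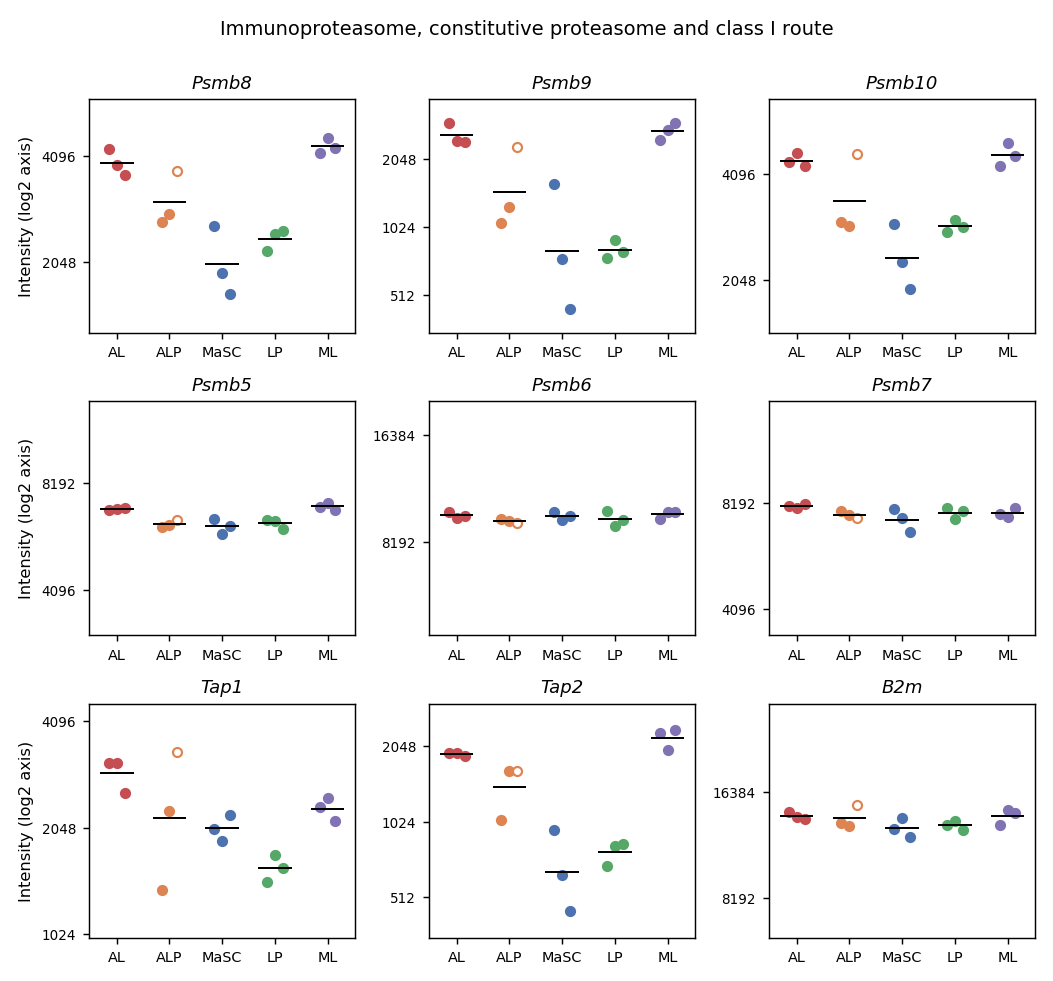
Intensity on log2 axes, whose ranges differ between panels, of the immunoproteasome subunits Psmb8, Psmb9 and Psmb10, the constitutive subunits Psmb5, Psmb6 and Psmb7, the transporter genes Tap1 and Tap2, and B2m. Each point is 1 array, lines are the mean log2 of 3 arrays, and the open circle is ALP replicate 3. Psmb9 is between 2426 and 2942 in AL, between 748 and 895 in LP and between 2479.9 and 2928 in ML, while Psmb6 is between 9522 and 9944 in AL, between 9085 and 9990.3 in LP and between 9468 and 9942 in ML.

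The transporter followed the same order in part. Tap2, which forms the transporter with Tap1, had AL values of 1924, 1927 and 1874, ALP values of 1044, 1624 and 1625, MaSC values of 953, 630.4 and 449, LP values of 683, 819.8 and 831 and ML values of 2312, 1983 and 2375. All AL and ML arrays were above all MaSC, LP and ALP arrays. AL exceeded LP by 2.46-fold (log2 difference 1.30 ± 0.24, adjusted p = 0.00109) and MaSC by 2.95-fold (log2 difference 1.56 ± 0.24, adjusted p = 0.000183), and LP were below ML by 2.86-fold (log2 difference -1.52 ± 0.24, adjusted p = 0.000376). Tap1 had AL values of 3114, 3125 and 2564, ALP values of 1365, 2281 and 3357, MaSC values of 2035, 1878 and 2227, LP values of 1434, 1717 and 1573 and ML values of 2339.9, 2477 and 2135, so AL and ML arrays were again above those of LP, but MaSC were not the lowest. Only AL against LP was called (1.86-fold, adjusted p = 0.0107). A further, dimmer probe set of Tap1 placed ML above AL (log2 difference -1.05, adjusted p = 0.000522) and above LP (log2 difference -1.27, adjusted p = 0.000228), where the brightest gave log2 differences of 0.34 and -0.56 with no call, so the order of AL and ML for Tap1 depends on the probe set.

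Read from their brightest probe sets, Tapbp and B2m, near the end of the route, differed little. Tapbp, the tapasin that holds the transporter next to the class I molecule, was between 10388 and 11524 in MaSC, against 12103 to 13100.1 in ML. MaSC were below ML by 1.14-fold (adjusted p = 0.04995), a call lost in 13 of the 15 fits that left 1 array out (adjusted p = 0.154 without MaSC replicate 3). A dimmer probe set of Tapbp placed MaSC further below ML (log2 difference -0.595, adjusted p = 0.0264). With all arrays it also placed ALP above MaSC (log2 difference 0.622, adjusted p = 0.0335), so the size of these steps depends on the probe set. B2m was between 13758 and 14359.7 in AL, between 13154 and 15057 in ALP, between 12224 and 13802 in MaSC, between 12788 and 13523 in LP and between 13182 and 14531 in ML, and no comparison was called. The heavy chain H2-K1, whose sequence is nearly shared with other class I genes so that its reading is uncertain, was between 8803 and 9536 in AL, between 6873 and 8286 in MaSC and between 8923 and 10219.7 in ML, lower in MaSC than in ML by 1.24-fold (adjusted p = 0.00996). Erap1, the aminopeptidase that trims peptides in the endoplasmic reticulum, was between 2239 and 2519.6 in AL, against 1228 to 1343 in ALP, between 974 and 1032 in MaSC, between 1158 and 1286 in LP and between 1104 and 1319 in ML. It was called higher in AL in each of the 4 comparisons (AL against ML, 1.92-fold, log2 difference 0.94 ± 0.09, adjusted p = 5.08e-06), and AL against ALP (1.87-fold, adjusted p = 1.85e-05) held without ALP replicate 3 (adjusted p = 8.99e-05). H2-M3, a heavy chain that presents peptides starting with formylmethionine, ran the other way, between 209.5 and 239.8 in AL, against 790.2 to 1069 in ML (4.32-fold, adjusted p = 0.000672). Of the 9 genes tested in this list outside the members, 1 was higher and 0 lower in AL than in LP, beside 21.3% and 24.2% of all genes, and 1 was higher and 5 lower in MaSC than in ML, beside 27.1% and 32.5%.

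Among the transcription factors, Stat2 and Irf1 had their highest mean log2 intensity in ML. Stat2, the Stat factor particular to type I and type III interferon signalling, had AL values of 138, 284 and 144, ALP values of 134, 244 and 674, MaSC values of 425, 391 and 469, LP values of 153, 293 and 239 and ML values of 721, 923 and 836. Every ML array was above every other array. AL were below ML by 4.61-fold (log2 difference -2.21 ± 0.48, adjusted p = 0.00226) and LP by 3.73-fold (log2 difference -1.90 ± 0.48, adjusted p = 0.00679). AL replicates 1 and 3 and LP replicate 1 were below the median of their arrays, so these folds rest in part on dim values. MaSC lay between and were not called against ML with all arrays (log2 difference -0.94 ± 0.48, adjusted p = 0.109). Irf1, which responds to interferon gamma and drives the class I route, had AL values of 2089, 3877 and 1921, ALP values of 1564, 2866 and 5814, MaSC values of 1928, 1787 and 1627, LP values of 938, 1421 and 1101 and ML values of 3357, 3145 and 2939. LP were the lowest, below ML by 2.76-fold (log2 difference -1.47 ± 0.39, adjusted p = 0.00902), and the 3 LP arrays were under every other array. For Irf1, AL replicate 2 and ALP replicate 3 were above every ML array, and with all arrays ML were called against LP alone. The higher level in AL than in LP (2.2-fold, adjusted p = 0.0328) was lost in 3 of the 15 fits that left 1 array out, those without AL replicate 2, LP replicate 1 or LP replicate 3 (adjusted p = 0.135 without AL replicate 2).

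Irf7, which amplifies type I interferon production, and Irf9, the partner of Stat2 on DNA, had other orders. Irf7 had AL values of 644, 796 and 620.2, ALP values of 598, 565 and 3038, MaSC values of 499.9, 534 and 551, LP values of 837, 804 and 744 and ML values of 342, 388 and 411. Outside ALP, LP had the highest mean and ML the lowest and their arrays did not overlap. With all arrays the single call was ALP over ML (2.66-fold, adjusted p = 0.0365, and adjusted p = 0.00237 without ALP replicate 3, where the log2 difference was 0.62), and it was lost without any 1 of the ML arrays (adjusted p up to 0.0946). Without ALP replicate 3, LP (2.09-fold, adjusted p = 2.07e-05) and AL (1.8-fold, adjusted p = 6.03e-05) were called above ML as well. Irf9 was between 993 and 1202 in AL, between 1551 and 1661 in MaSC, between 1041 and 1361 in LP and between 1347 and 1487 in ML, and the MaSC arrays were above every AL, LP and ML array. AL were below MaSC by 1.47-fold (adjusted p = 0.0325), a call lost without AL replicate 1 or 3 or any 1 of the MaSC arrays (adjusted p = 0.101 without AL replicate 3). So the genes for these partners, Stat2 and Irf9, had their highest means in different populations.

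Usp18 gave the widest difference of any member between AL and ML. Its protein strips Isg15 from other proteins and blocks signalling at the type I receptor, so that it limits the response that induces it. Usp18 had AL values of 99.1, 235 and 162, ALP values of 639, 1100.0 and 2577, MaSC values of 937, 754 and 241, LP values of 813, 1004 and 563 and ML values of 2730.2, 3761 and 2817. The AL arrays were the lowest, with MaSC replicate 3 just above them, and the ML arrays were above all others. AL replicate 1 was below the median of its array and AL replicate 3 close above it, so the folds that involve AL rest on dim values. AL were below ML by 19.7-fold (log2 difference -4.30 ± 0.56, adjusted p = 6.32e-05), below LP by 4.95-fold (log2 difference -2.31 ± 0.56, adjusted p = 0.00602) and below ALP by 7.82-fold (log2 difference -2.97 ± 0.56, adjusted p = 0.00165), and the last held without ALP replicate 3 (log2 difference -2.43, adjusted p = 0.00493). LP were below ML by 3.98-fold (adjusted p = 0.0122) and MaSC by 5.54-fold (adjusted p = 0.00281), and without MaSC replicate 3 the log2 difference of MaSC from ML was -1.87 in place of -2.47. AL against MaSC, called with all arrays (log2 difference -1.83 ± 0.56, adjusted p = 0.0149), was lost without AL replicate 1, MaSC replicate 1 or MaSC replicate 2 (adjusted p = 0.0616 without AL replicate 1), while without MaSC replicate 3 the log2 difference was -2.43.

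Trim25, the ubiquitin ligase that acts on the RNA sensor encoded by Ddx58, varied little. It was between 3928 and 5382 in MaSC, and every one of those arrays was below every array of AL, ALP, LP and ML. MaSC were below LP by 1.54-fold (adjusted p = 0.00248) and below ML by 1.42-fold (adjusted p = 0.0048). Other probe sets of Trim25 did not all give this order: a dimmer one placed AL and LP above ML (log2 differences 1.62 and 1.73), where the brightest gave -0.08 and 0.12 with no call.

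Genes outside the list that restrain Jak and Stat signalling were called lower in AL more often than higher. Of the 7 tested, 5 were lower and 0 higher in AL than in LP, 5 were lower than in ML and 5 lower than in MaSC, beside 24.2%, 24.8% and 28% of all genes lower in AL. Against ALP 6 were lower with all arrays, beside 21.2%, and 4 without ALP replicate 3, beside 18.8%. Socs3, which binds cytokine receptors and Jak kinases, was between 1313 and 1659 in AL, against 4832 to 6186 in MaSC, between 2463 and 3414 in LP and between 6060.5 and 6443 in ML (AL against ML, 4.33-fold, log2 difference -2.12 ± 0.24, adjusted p = 1.81e-05). Ptpn1, a phosphatase that acts on Jak2 and Tyk2, was between 628 and 738 in AL, against 2558 to 3489.7 in MaSC, between 1221 and 1651 in LP and between 2995 and 3633 in ML (AL against ML, 4.71-fold, log2 difference -2.24 ± 0.15, adjusted p = 4.35e-07). No array of another population reached the AL range of either gene.

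The direct antiviral genes split into opposite patterns. Ifit2, which binds RNA and slows translation, had AL values of 398, 378 and 373, ALP values of 229.9, 169 and 1134, MaSC values of 103, 128 and 88.8, LP values of 157, 194 and 141 and ML values of 20.1, 22.8 and 23.6. The ML arrays were far below the array median, and no array of another population came near them. All MaSC arrays, LP replicates 1 and 3 and ALP replicate 2 were also below the median of their arrays, so the folds over ML rest on dim values. AL exceeded ML by 17.3-fold (log2 difference 4.11 ± 0.52, adjusted p = 4.57e-05), LP exceeded ML by 7.34-fold (log2 difference 2.88 ± 0.52, adjusted p = 0.000886) and MaSC exceeded ML by 4.76-fold (log2 difference 2.25 ± 0.52, adjusted p = 0.00289). AL were also above MaSC (3.63-fold, adjusted p = 0.00855), with no overlap between their arrays. For ALP the size of the difference from ML rested on replicate 3, with 16-fold over ML with it and 8.91-fold without it (adjusted p = 9.16e-07).

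Ifit3, which works in a complex with the other Ifit proteins, was also lowest in ML. It had AL values of 189, 229 and 206, ALP values of 199, 306 and 2383, MaSC values of 309.7, 182 and 99.98, LP values of 901, 689 and 304 and ML values of 58.3, 60.97 and 66.5, so LP were high and variable. LP exceeded ML by 9.28-fold (log2 difference 3.21 ± 0.76, adjusted p = 0.00457), where the ML values were below the median of their arrays. ALP exceeded ML by 8.5-fold (adjusted p = 0.00828) with all arrays and by 3.99-fold without ALP replicate 3 (adjusted p = 0.00692), and leaving out ALP replicate 1 in its place moved the log2 difference to 3.79. AL against ML was not called (log2 difference 1.75 ± 0.76, adjusted p = 0.0712) although the arrays of the 2 populations did not overlap, and was called without ALP replicate 3 (adjusted p = 0.00471).

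Oas2 and Oas3, whose products make the short adenylate chains that switch on RNase L, had their highest means in ML, where Ifit2 and Ifit3 had their lowest. Oas3 had AL values of 21.02, 14.01 and 11.1, ALP values of 30.5, 41.2 and 863, MaSC values of 40.6, 12.7 and 7.63, LP values of 72.5, 87.1 and 50.6 and ML values of 144, 344 and 237. Outside ALP replicate 3, every ML array was above every other array, although the AL, MaSC and LP values were all below the median of their arrays, so the folds rest on dim values. Oas3 passed the filter only through the 3 ML arrays and ALP replicate 3. Its calls against ML thus depend on a filter that it passed through the group where it was high. AL were below ML by 15.3-fold (log2 difference -3.94 ± 1.04, adjusted p = 0.00714) and MaSC by 14.4-fold (log2 difference -3.85 ± 1.04, adjusted p = 0.00728), and without MaSC replicate 1 the log2 difference of MaSC from ML was -4.53. The call of AL below ALP (log2 difference -2.79 ± 1.04, adjusted p = 0.04968) was lost without ALP replicate 3 (log2 difference -1.26, adjusted p = 0.119). Oas2 was dim on most arrays, at 57.5, 124 and 63.1 in AL and 20.8, 45.5 and 42.9 in MaSC, against 107, 179 and 149.6 in ML, and its single call with all arrays, MaSC below ML (4.13-fold, adjusted p = 0.0388), was lost without any 1 of the MaSC or ML arrays (adjusted p = 0.12 without MaSC replicate 1). Oas2 passed the filter on 3 arrays only, ALP replicate 3 and ML replicates 2 and 3, and was kept in the fit without ALP replicate 3. In that fit MaSC below ML had adjusted p = 0.000614, and LP below ML was called too (adjusted p = 0.00376). Both calls depend on a filter that Oas2 passed through the dropped array and through ML, where it was high. Oasl2 was between 532 and 727 in AL and between 570.3 and 1102 in ML, with overlapping arrays, and was called in no comparison.

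**Figure D5:**
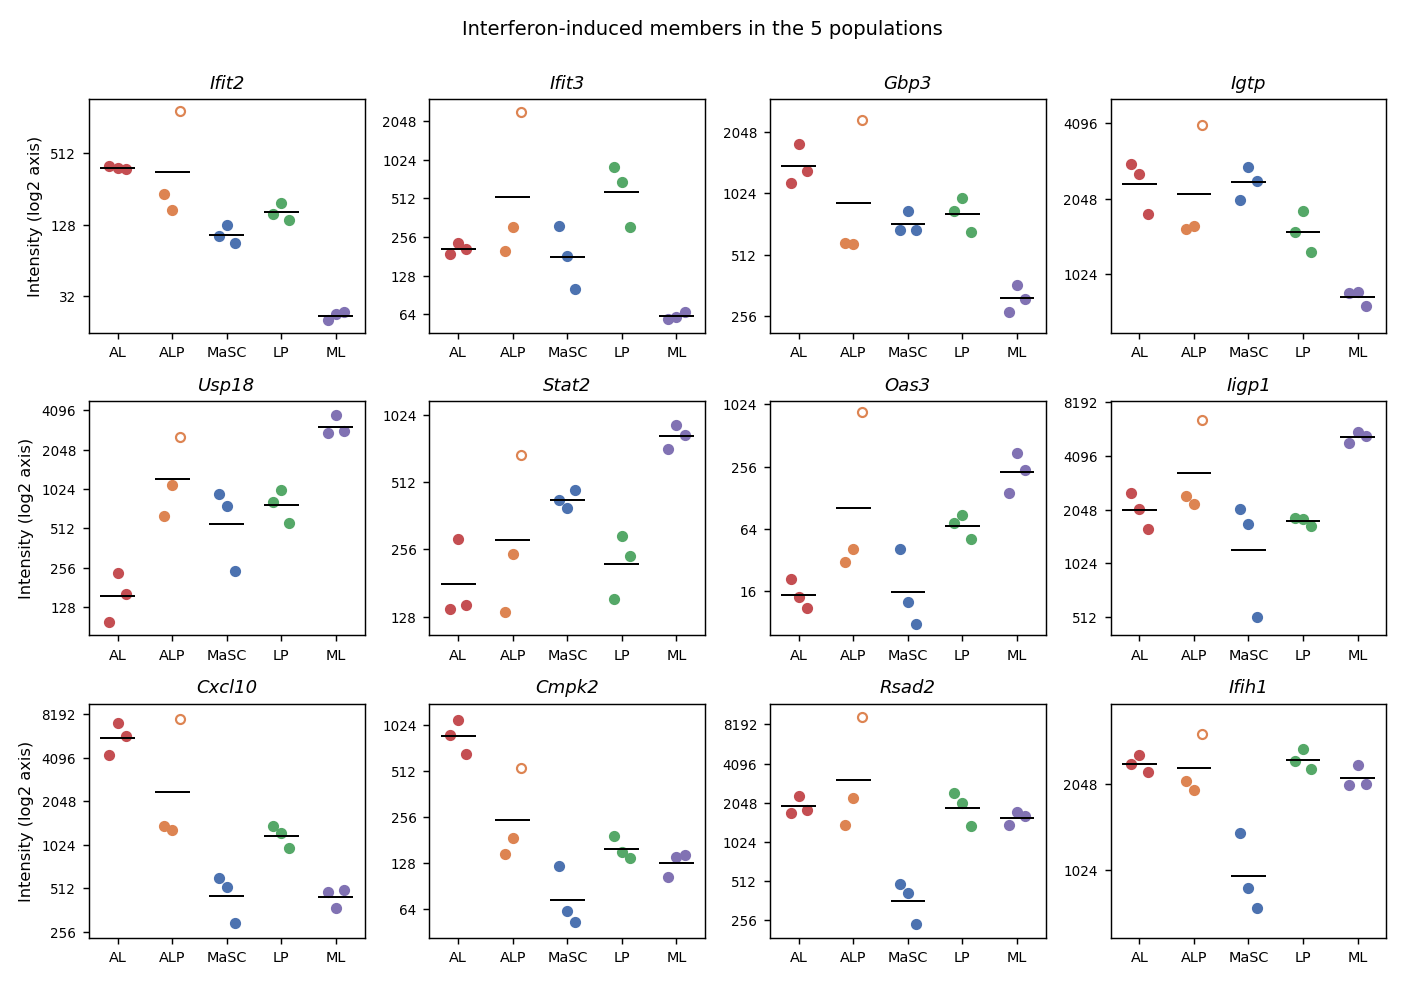
Intensity of 12 members on log2 axes whose ranges differ between panels, 1 point per array, with lines at the mean log2 of 3 arrays and an open circle for ALP replicate 3. Ifit2, Ifit3, Gbp3 and Igtp are lowest in ML, Usp18, Stat2, Oas3 and Iigp1 highest in ML outside ALP replicate 3, Cxcl10 and Cmpk2 highest in AL outside it, and Rsad2 and Ifih1 lowest in MaSC.

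Rsad2 and Cmpk2, neighbours on chromosome 12 whose products act on nucleotides (Rsad2, or viperin, makes a chain-terminating nucleotide and Cmpk2 is a mitochondrial nucleotide kinase), were both lowest in MaSC but differed in which population stood apart. Rsad2 had AL values of 1717, 2301 and 1812, ALP values of 1373, 2227 and 9275, MaSC values of 486, 413 and 239.5, LP values of 2432, 2024 and 1352 and ML values of 1381, 1743 and 1623, so MaSC were apart from all other populations. MaSC were below LP by 5.17-fold (log2 difference -2.37 ± 0.55, adjusted p = 0.00512) and below ML by 4.33-fold (adjusted p = 0.00579), and AL exceeded MaSC by 5.3-fold (adjusted p = 0.00267). Cmpk2 had AL values of 877, 1099.8 and 659, ALP values of 146, 187 and 536, MaSC values of 122, 62.6 and 53.2, LP values of 193, 151 and 139 and ML values of 105, 139.8 and 145. Every AL array was above every other array, and the MaSC values were below the median of their arrays, so the fold over MaSC rests on dim values. AL exceeded MaSC by 11.6-fold (log2 difference 3.54 ± 0.44, adjusted p = 4.06e-05), ML by 6.69-fold (log2 difference 2.74 ± 0.44, adjusted p = 0.00027), LP by 5.4-fold (log2 difference 2.43 ± 0.44, adjusted p = 0.000966) and ALP by 3.52-fold (log2 difference 1.81 ± 0.44, adjusted p = 0.00664, and without ALP replicate 3 log2 difference 2.38, adjusted p = 0.000328).

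Bst2, or tetherin, which holds budding virus at the cell surface, had AL values of 4117, 4297 and 3721, ALP values of 1882, 2842 and 6618, MaSC values of 2277, 1003 and 506, LP values of 2362, 1997 and 1726 and ML values of 4005, 3383 and 3279. AL and ML were the highest populations outside ALP replicate 3, and the MaSC arrays spread widely, with replicate 1 inside the range of LP and ALP. AL exceeded MaSC by 3.85-fold (adjusted p = 0.00524) and MaSC were below ML by 3.37-fold (adjusted p = 0.00929). ALP over MaSC (log2 difference 1.65 ± 0.49, adjusted p = 0.0218) was lost without ALP replicate 3 (adjusted p = 0.0752).

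The remaining effectors were low in AL or in MaSC. Samd9l, which restricts poxviruses and slows growth, was between 529 and 642 in AL, between 1041 and 1419.6 in MaSC, between 1477 and 1592 in LP and between 603 and 741 in ML. AL were below LP by 2.64-fold (log2 difference -1.40 ± 0.34, adjusted p = 0.00575) and below ALP by 2.62-fold (adjusted p = 0.00713, and adjusted p = 0.0038 without ALP replicate 3), and LP exceeded ML by 2.3-fold (adjusted p = 0.0122). Xaf1, which opposes an inhibitor of apoptosis, was between 864 and 1042 in AL, against 1697 to 2273 in LP and between 2030.2 and 2614 in ML, and AL were below ML by 2.52-fold (log2 difference -1.33 ± 0.31, adjusted p = 0.00371). Ifi35, a partner of Nmi, spanned a narrow range on its brightest probe set, between 5959 and 6335 in MaSC, against 8598 to 9078 in ML (1.42-fold, adjusted p = 0.00745). A dimmer probe set of Ifi35 also placed AL (log2 difference -0.617, adjusted p = 0.00274) and LP (log2 difference -0.681, adjusted p = 0.00196) below ML. The brightest gave -0.31 and -0.28 there with no call.

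Of the 3 sensors among the members, Ifih1 and Dhx58 were low in MaSC. Ifih1 encodes Mda5, which binds long duplex RNA, and had AL values of 2401, 2587 and 2248, ALP values of 2091, 1944 and 3052, MaSC values of 1379.9, 888 and 759, LP values of 2449.9, 2702 and 2307 and ML values of 2029, 2384 and 2048. All 3 MaSC arrays were below every other array. MaSC were below LP by 2.54-fold (log2 difference -1.35 ± 0.21, adjusted p = 0.000494) and below ML by 2.2-fold (log2 difference -1.14 ± 0.21, adjusted p = 0.000776), AL exceeded MaSC by 2.47-fold (log2 difference 1.30 ± 0.21, adjusted p = 0.000267), and ALP exceeded MaSC by 2.37-fold (adjusted p = 0.00102, and adjusted p = 0.00245 without ALP replicate 3). Dhx58, whose product tunes Mda5, had 131, 52.8 and 58.1 in MaSC, all below the median of their arrays, against 262, 315 and 244 in LP and 214, 233 and 279 in ML, lower by 3.69-fold (adjusted p = 0.00597) and 3.26-fold (adjusted p = 0.00612). AL had 106, 152 and 138, overlapping with MaSC, and without ALP replicate 3 AL were called below LP (2.09-fold, adjusted p = 0.0144) and below ML (1.85-fold, adjusted p = 0.0287). Zbp1 was between 410.2 and 590.2 in AL, between 402 and 617 in MaSC, between 763 and 883 in LP and between 660.4 and 763 in ML with no call. Outside the list, Tlr3, an endosomal sensor of duplex RNA, was between 5318 and 6619 in AL, against 802 to 2625 in MaSC, between 2507 and 3267 in LP and between 4829.9 and 5043 in ML (AL against MaSC, 3.87-fold, adjusted p = 0.000416). Cgas, the cytosolic DNA sensor, was between 1311 and 1694 in AL, against 339.7 to 417 in ML (3.8-fold, adjusted p = 6.01e-05), and Ikbke, a kinase that acts on Irf factors, was between 241 and 414 in AL, against 51.3 to 96.8 in LP (4.46-fold, adjusted p = 0.00284), where the LP values were below the array medians. Of the 9 sensors and adaptors tested outside the members, 5 were higher and 1 lower in AL than in LP, beside 21.3% and 24.2% of all genes, and 1 was higher and 3 lower in MaSC than in ML, beside 27.1% and 32.5%.

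The GTPases also took opposite orders. Gbp3, a guanylate-binding protein, was lowest in ML, with AL values of 1155, 1796 and 1318, ALP values of 582, 578 and 2336, MaSC values of 676, 840.5 and 677, LP values of 837, 972 and 658 and ML values of 269, 363 and 311. AL exceeded ML by 4.48-fold (log2 difference 2.16 ± 0.43, adjusted p = 0.00128). MaSC (2.33-fold, adjusted p = 0.0285) and LP (2.6-fold, adjusted p = 0.02) exceeded ML too, but the call for MaSC was lost without MaSC replicate 2 or 3 or ML replicate 1 or 3 (adjusted p up to 0.0829) and that for LP without LP replicate 1 or 2 or ML replicate 1 (adjusted p up to 0.0658). Igtp and Irgm1, immunity-related GTPases that meet on pathogen vacuoles, were likewise lowest in ML. Igtp had AL values of 2803, 2560.2 and 1783, ALP values of 1551, 1586 and 4004, MaSC values of 2025, 2735 and 2412, LP values of 1507, 1828 and 1259.7 and ML values of 865, 866 and 762. No array of another population reached the ML range. AL exceeded ML by 2.82-fold (log2 difference 1.50 ± 0.32, adjusted p = 0.00193) and MaSC exceeded ML by 2.86-fold (log2 difference 1.52 ± 0.32, adjusted p = 0.00168). Irgm1 was between 740.5 and 1041 in AL, between 1569 and 1977 in MaSC, between 844 and 1462 in LP and between 620.0 and 764 in ML, and MaSC exceeded ML by 2.51-fold (adjusted p = 0.00896).

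Iigp1, of the same family, was highest in ML outside ALP replicate 3, with AL values of 2539, 2076 and 1596, ALP values of 2432, 2203 and 6514, MaSC values of 2065, 1694 and 515, LP values of 1844, 1824 and 1657 and ML values of 4814, 5552 and 5291. LP were below ML by 2.94-fold (adjusted p = 0.02), a call lost in 2 of the 15 fits that left 1 array out, those without LP replicate 3 or ML replicate 2 (adjusted p = 0.0552 without ML replicate 2). MaSC were below ML by 4.28-fold (adjusted p = 0.00309), and without MaSC replicate 3 the log2 difference was -1.48 in place of -2.10 (adjusted p = 0.00775). Gbp2 was between 1417 and 2081 in AL and between 1756 and 2779.9 in ML, with overlapping arrays, and its probe set may bind other transcripts of the family.

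The ADP-ribosyltransferase Parp9, which enhances Stat signalling, was highest in AL and lowest in MaSC, with AL values of 2300.2, 2865 and 2429, ALP values of 1234, 1485 and 2281, MaSC values of 939, 867 and 568, LP values of 991, 1273 and 1333 and ML values of 1690.4, 1888 and 1836. Every AL array was above every other array. AL exceeded MaSC by 3.26-fold (log2 difference 1.70 ± 0.23, adjusted p = 7.9e-05) and LP by 2.12-fold (log2 difference 1.08 ± 0.23, adjusted p = 0.0028). Parp14, its partner, was between 2502 and 3409 in AL, between 1707 and 1724 in MaSC and between 2260.2 and 3134 in ML. It was not called with all arrays (AL against MaSC, log2 difference 0.73 ± 0.31, adjusted p = 0.062) and was called without ALP replicate 3 (adjusted p = 0.00239). A dimmer probe set of Parp14 had its lowest mean in AL, at 134, against 154 in MaSC and 247 in ML. The order of the populations for Parp14 thus depends on the probe set.

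Cxcl10, a chemokine that draws T cells through Cxcr3, had AL values of 4298, 7102 and 5764, ALP values of 1374, 1292 and 7586, MaSC values of 599.5, 524 and 297, LP values of 1373, 1232 and 973 and ML values of 481, 375 and 499. Outside ALP replicate 3, every AL array was above every array of the other populations. AL exceeded ML by 12.5-fold (log2 difference 3.64 ± 0.55, adjusted p = 0.000182), MaSC by 12.4-fold (log2 difference 3.63 ± 0.55, adjusted p = 0.000174) and LP by 4.75-fold (log2 difference 2.25 ± 0.55, adjusted p = 0.00614). AL against ALP was not called with all arrays (log2 difference 1.24 ± 0.55, adjusted p = 0.0939) and was called without ALP replicate 3 (log2 difference 2.07, adjusted p = 0.000346). AL also carried a higher leukocyte marker level than MaSC, LP and ML. The markers' sum was between 3099.5 and 4888 in AL, against 1396 to 2158 in MaSC. It was between 1968 and 2712 in LP and between 1258 and 1342 in ML. Of the 17 markers, 8 to 9 were above the array's median in AL, against 1 to 4 in MaSC, LP and ML. Ptprc itself was between 67.2 and 93.6 in AL, below the median of each array. Class II genes summed to values between 5405 and 7588 in AL, against 2823 to 5076 in MaSC, between 1045 and 2601 in LP and between 1592 and 1836 in ML. Fibroblast markers summed to values between 31766 and 44022 in AL and between 37878 and 56417 in LP, against 8503 to 11934 in MaSC and between 1732 and 6304 in ML. Basal markers summed to values between 22885 and 27279.8 in AL, higher than in LP and ML and lower than in MaSC. Endothelial markers summed to values between 1338 and 1729 in AL, against 514 to 519.8 in MaSC, between 779.7 and 1257 in LP and between 603 and 669.8 in ML, and 4 of the 6 tested were called higher in AL than in MaSC and than in ML. ALP replicates 1 and 2 had leukocyte sums of 3042 and 3959, class II sums of 4519.5 and 5425 and endothelial sums of 2223 and 4492. Their fibroblast sums were 49194 and 50912.5 and their basal sums 11437 and 8936. ALP replicate 2 thus reached the AL range of the leukocyte and class II sums, and both arrays exceeded it in the endothelial and fibroblast sums. Of the 17 leukocyte markers, however, 4 and 5 were above the array's median on these arrays. Both basal sums were below every AL array. Without ALP replicate 3, 5 of the 8 basal genes were called higher in AL than in ALP, beside 21.8% of all genes. With all arrays 1 was, beside 18.7%. The part of these cell types in the members' differences was not tested.

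Other interferon-induced genes, named from a wider list of 36 tested, also split. In ALP against ML 12 of them were higher and 3 lower, and without ALP replicate 3 12 were higher and 9 lower. In AL against ML 8 were higher and 7 lower, and without that array 15 and 9. In MaSC against ML 5 were higher and 7 lower, and without it 11 and 13. Over all genes, 21.1% were higher and 15.6% lower in ALP than in ML, 28.7% and 24.8% in AL than in ML, and 27.1% and 32.5% in MaSC than in ML. Ifi47, another immunity-related GTPase, was between 2181 and 3043 in AL, against 658 to 1187 in MaSC, between 489 and 1081 in LP and between 75.1 and 112 in ML (AL against ML, 30.4-fold, log2 difference 4.93 ± 0.49, adjusted p = 7.96e-06). Ifi204, a nuclear DNA-binding protein, was between 73.7 and 109 in AL, between 6.13 and 23.7 in MaSC, between 469.9 and 1051 in LP and between 23.5 and 36.1 in ML (LP against ML, 26.8-fold, adjusted p = 0.000141). The ML values of Ifi47 and Ifi204 were below the median of their arrays, so these folds rest on dim values. Ifi27l2a, a mitochondrial protein, was between 2915 and 6071 in LP, against 162 to 309 in ML (18.4-fold, adjusted p = 0.000149).

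Of the receptor genes, Ifnlr1 differed most. Ifnlr1, the receptor chain particular to the epithelial type III interferons, was between 1038 and 1109.5 in AL, between 403 and 1078 in MaSC and between 1197 and 1503 in LP, against 2512 to 2899 in ML (AL against ML, 2.53-fold, log2 difference -1.34 ± 0.27, adjusted p = 0.00135). The type I chains Ifnar1 and Ifnar2 and the type II chains Ifngr1 and Ifngr2 spanned at most 0.54 on the log2 scale between population means. Tyk2, the kinase bound to Ifnar1, was between 815 and 1143 in AL, against 170.1 to 324 in MaSC (3.99-fold, adjusted p = 0.000635), and Jak2, the kinase of the type II receptor, was between 4059 and 4648 in AL, against 7311 to 8289 in ML (1.82-fold, adjusted p = 0.000227).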

How the data were processed

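RNA of 15 sorted samples (RNeasy, amplified with NuGEN Ovation V2) was hybridised to Affymetrix Mouse Genome 430 2.0 arrays. The deposited values are intensities on a linear scale that the authors normalised with dChip, whose version and baseline array no source used here gives. The table held 45101 probe sets, of which 64 were controls, 34945 had 1 symbol, 932 several and 9160 none, and 659 values of 0. No scan dates were used, and a batch that held ALP alone would coincide with that population.

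Values under 1 were set to 1 and taken to log2. Each gene was represented by its brightest single-symbol probe set, above the array's median on at least 3 of 15 arrays. This filter was set on all 15 arrays and kept in the fits that left an array out. Pairs of populations were compared with limma 3.58.1 in R 4.3.3 (lmFit and eBayes, 1 mean per population, two-sided). The fit was tested on simulated data. Members and gene lists were chosen with earlier results of these data known, so no test over a list is given. Named genes outside the members are up to 3 per list with the widest span among those called, apart from H2-K1, the constitutive proteasome subunits and the receptor chains and kinases Ifnar1, Ifnar2, Ifngr1, Ifngr2 and Jak2, named for their roles. Alternatives were the normalisation, the filter, an addition of 16 to each intensity, the mean of probe sets, the variance model, the samples fitted and leaving out each array. Promoter windows were RefSeq sequences of GRCm38.p6.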

Additional observations from a re-analysis of the deposited data

How the results depend on the processing

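None of the 109 calls of members changed sign in any setting run, and 64 held in every one. The counts below are given without the share of all genes called in each setting. They describe the processing and are no result about the members. Leaving out 1 array at a time, 77 held in all 15 fits and 32 were lost in at least 1. The counts of members called then ranged from 11 to 20 for AL against LP, 9 to 17 for AL against ML, 3 to 14 for AL against ALP, 13 to 24 for AL against MaSC, 0 to 3 for ALP against LP, 5 to 19 for ALP against ML, 8 to 19 for ALP against MaSC, 4 to 17 for MaSC against LP, 17 to 29 for MaSC against ML and 11 to 24 for LP against ML, and the highest came without ALP replicate 3, except in ALP against LP and ALP against MaSC, where it came without ALP replicate 1. Arrays centred on their medians gave 12 calls for AL against ALP, 2 for ALP against LP, 20 for ALP against ML and 10 for MaSC against LP, and moved the median of all genes by -0.33 in ALP against ML. Quantile normalisation gave 2 for ALP against LP and 7 for MaSC against LP. For ALP against LP, adding 16 gave 1 call, and the mean of probe sets and the trended and robust variance 2 each. With only the 2 populations compared in the fit, there were 22 calls for AL against LP, 18 for AL against ML, 2 for AL against ALP, 1 for ALP against ML, 0 for ALP against MaSC and 15 for MaSC against LP. In comparisons without ALP, leaving out ALP replicate 3 changed only the shared estimate of the spread, and the causes of the other shifts were not tested. Replicate numbers were not treated as pairs, since no source ties them to a shared preparation and same-numbered MaSC, LP and ML arrays deviated together with correlations of only -0.012 to 0.174. With the replicate number as a block over those 9 arrays, calls numbered 17 for MaSC against LP, 20 for LP against ML and 27 for MaSC against ML. The same 9 arrays without the block, a fit chosen after seeing the data, gave 19, 23 and 27. Without the filter on dim probe sets 14 of the 109 calls were lost. Dim values limit Oas2, Oas3, Ifit2, Ifit3, Cmpk2 and Dhx58, whose lowest groups lie below the array median. They also limit Stat2 and Usp18, where some AL values lie below it.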
